A study of Mus musculus with 6 samples.

Results

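Genes of the Wnt pathway's outer layer were examined: the secreted Wnt ligands, their receptors, the secreted inhibitors, and the genes used to read the pathway's output. They were chosen by gene symbol, as any Wnt, Fzd, Sfrp, Dkk or Rspo gene with a number, together with Lrp5, Lrp6, Wif1, Axin2, Lef1, Tcf7, Nkd1, Nkd2, Lgr4, Lgr5 and Lgr6. This gave 52 genes on 64 probes, of 20832 named genes and 39429 probes on the array. The cells were primary prostate cells of p53-/- mice whose Rb alleles were floxed (Rb f/f). In the Rb deleted group an adenovirus carrying Cre recombinase had removed Rb, and in the Rb intact group the same cells had received an adenovirus carrying lacZ. Both groups, with 3 samples each, were infected overnight, kept in serum-free prostate medium with bFGF and bEGF, and harvested 48 h after infection. Each sample was hybridised to its own one-colour array. The sample labels state neither the age of the mice nor the promoter driving Cre, and since Cre and lacZ came in different viruses, virus and Rb status cannot be told apart.

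A Wnt ligand binds a Frizzled receptor together with the co-receptor Lrp5 or Lrp6, which spares beta-catenin from degradation. Beta-catenin then works with transcription factors of the TCF/LEF family, among them Lef1 and Tcf7. Secreted frizzled-related proteins (Sfrp) and Wif1 bind Wnt ligands outside the cell, Dickkopf proteins (Dkk) act mainly on Lrp5 and Lrp6, and R-spondins (Rspo), through the receptors Lgr4 to Lgr6, protect Frizzled receptors from removal. In the prostate this pathway takes part in bud outgrowth and in signalling between stroma and epithelium.

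The targeted gene was low in every Rb deleted culture. Rb1 stood at -3.13, -3.12 and -3.07 in Rb deleted cells and at -1.15, -1.14 and -1.17 in Rb intact cells, where a level is the log2 intensity of the gene's probe relative to the 75th percentile of its array. The Rb deleted signal was 25.7% of the Rb intact signal, and Rb1 fell by 1.96 ± 0.05 on the log2 scale (SE, limma adjusted p = 8.30e-05). Trp53, the gene of p53, gave a signal well above background on every array, at -2.62, -2.86 and -2.79 in Rb deleted cells and -2.12, -2.59 and -2.64 in Rb intact cells (limma adjusted p = 0.198). It is not known here whether the Trp53 probe falls in the part of the gene that was altered, so its signal does not check the label. Each array read 58.7% to 63.3% of its probes well above background, and 0 spots were saturated. Across probes, which are not replicates of each other, arrays of the same group correlated at a Pearson's r of 0.993 to 0.998 and arrays of different groups at 0.988 to 0.993. All Rb intact arrays and Rb deleted 1 lay on the first of 2 slides, and Rb deleted 2 and 3 lay on the second, so the groups can be compared within a slide only on the first. All 12 fibroblast and mesenchymal markers were measurable, with a mean level of 4.67 to 4.72 in Rb deleted and 4.74 to 4.81 in Rb intact cells. Of 9 prostate basal markers 5 were measurable, among them Krt14, Trp63 and Itga6, while Krt5 and Krt15 did not reach the detection filter. The mean level of the 5 was 0.01 to 0.02 in Rb deleted and 0.26 to 0.29 in Rb intact cells. Of 10 luminal markers 6 were measurable, among them Krt8 and Krt18, while Pbsn and Hoxb13 did not reach the filter. The mean level of the 6 was -1.3 to -1.1 in Rb deleted and -1.2 to -1.1 in Rb intact cells.

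In Rb deleted cells 3 of these genes differed from Rb intact cells by more than 2-fold: the secreted inhibitor Sfrp2 and the R-spondin Rspo4 fell, and the transcription factor Lef1 rose. With the normexp background model on median signal the Lef1 difference was 0.71 on the log2 scale, still called but under 2-fold. In all, 31 members were measurable, meaning that in Rb deleted or in Rb intact cells all 3 arrays read well above background, and 11 of them changed at a limma adjusted p under 0.05. The 7 that rose were Lef1, Sfrp4, Rspo2, Tcf7, Rspo1, Fzd5 and Fzd2, and the 4 that fell were Sfrp2, Rspo4, Fzd6 and Fzd1. Rises made up 22.6% of the measurable members, against 9.45% of all 13729 genes tested. Falls made up 12.9%, against 10.8% of all genes, and changes of either kind made up 35.5%, against 20.3%. The median difference, Rb deleted minus Rb intact, was 0.02 over the measurable members and 0.01 over all genes. Lef1 and Sfrp4 passed the detection filter through their Rb deleted arrays, being well above background on 2 of the 3 Rb intact arrays, so their place in the count of rises carries no weight of its own. Single arrays moved these counts: 3 members rose without Rb deleted 2, and 4 rose without Rb deleted 3 or without Rb intact 3. Without Rb intact 1, 9 members fell, and 2 fell without Rb deleted 2, Rb deleted 3 or Rb intact 2. Counts over all genes moved too. Rises went from 1298 to 438 without Rb deleted 2, 445 without Rb deleted 3 and 721 without Rb intact 3. Falls went from 1483 to 2519 without Rb intact 1. They went to 801 without Rb deleted 2, 791 without Rb deleted 3 and 1016 without Rb intact 2.

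**Figure D1:**
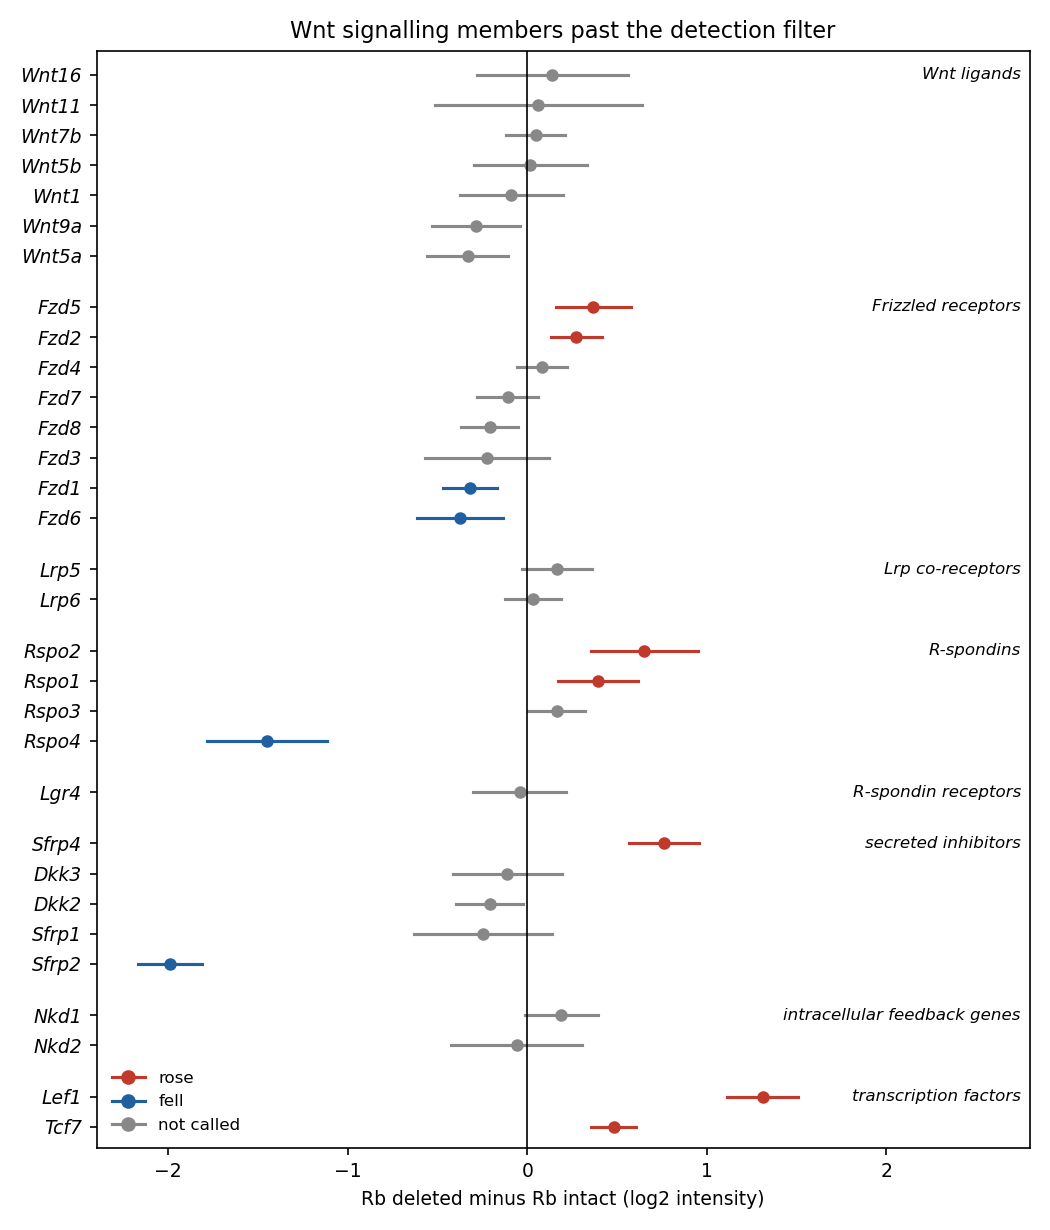
Difference in level, Rb deleted minus Rb intact (log2 intensity), for the 31 measurable members grouped by role. Points are the limma estimates and bars their 95% intervals, red for genes that rose, blue for genes that fell and grey for genes not called; Sfrp2 and Rspo4 lie far to the left and Lef1 to the right, with the other members between -0.37 and 0.76.

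The bases upstream of the start of Sfrp2, Rspo4 and Lef1 are shown because these are the members that changed by more than 2-fold. Each line is the 250 bases before an annotated transcript start, on the plus strand, from RefSeq on build GRCm38.p6, at chr3:83766071-83766320 for Sfrp2, chr2:151842677-151842926 for Rspo4 and chr3:131156044-131156293 for Lef1. Capitals mark a match to a TCF/LEF core motif. Lef1 has 4 annotated starts, and the one shown was picked because it alone held a match.
Sfrp2: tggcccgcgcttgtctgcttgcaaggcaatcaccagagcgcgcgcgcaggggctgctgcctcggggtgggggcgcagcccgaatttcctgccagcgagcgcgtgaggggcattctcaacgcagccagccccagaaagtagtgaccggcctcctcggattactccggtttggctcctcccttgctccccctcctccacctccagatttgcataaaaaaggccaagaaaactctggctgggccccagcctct
Rspo4: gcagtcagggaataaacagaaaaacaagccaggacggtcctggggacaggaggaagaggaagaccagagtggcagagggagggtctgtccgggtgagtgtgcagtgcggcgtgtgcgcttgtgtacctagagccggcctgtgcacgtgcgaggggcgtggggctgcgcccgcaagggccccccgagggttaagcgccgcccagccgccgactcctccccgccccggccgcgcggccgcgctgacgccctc
Lef1: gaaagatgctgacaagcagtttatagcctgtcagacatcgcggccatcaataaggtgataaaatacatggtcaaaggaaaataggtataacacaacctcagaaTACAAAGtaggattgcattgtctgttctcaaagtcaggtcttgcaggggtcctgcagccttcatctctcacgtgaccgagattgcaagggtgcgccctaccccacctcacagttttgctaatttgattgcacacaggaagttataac

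Promoter windows, running from 250 bases before to 50 bases after a start, were found for 35 of the 52 members, among them 7 of the 11 that changed. The TCF/LEF core was searched as CTTTGAA or CTTTGAT or CTTTGTA or CTTTGTT on both strands, and the E2F site as TTTCCCGC or TTTCGCGC or TTTGCCGC or TTTGGCGC on both strands. E2F factors are the transcription factors that Rb holds in check. Some members have several annotated starts, so the 35 members had 42 windows. A TCF/LEF match was found in 6 of these 42 windows, or 14.3%, and in 16.9% of all 32851 windows; the 6 belonged to 6 different members. Of the genes that changed only Lef1 had one, beginning at position -147 from the start of the window shown, and its other annotated starts had none. An E2F match was found in 2 of the 42 windows, or 4.76%, against 2.26% of all windows; they belonged to Sfrp5 and Wnt11, and 0 members that changed had one. Sfrp2 and Rspo4 held neither motif. The share of G and C in the whole window was 66.0% for Sfrp2 and 71.0% for Rspo4, against a median of 52.7% over all windows. For the 4 Lef1 starts it was 67.3%, 67.3%, 51.7% and, for the one shown, 43.7%. A match is a run of letters and does not show that a factor binds there.

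Among the Wnt ligands, the signals that start the pathway, 7 of 19 were measurable: Wnt1, Wnt5a, Wnt5b, Wnt7b, Wnt9a, Wnt11 and Wnt16. For Wnt1 and Wnt16 this rests on 1 probe each, since a second probe of each was not well above background on any array. The Wnt1 probes had mean levels of -1.61 and -8.12 in Rb deleted cells and -1.52 and -7.77 in Rb intact cells. The limma test called 0 of the 7, against 20.3% of all genes, with an unadjusted p under 0.05 for 2, Wnt5a and Wnt9a. Wnt5a, which acts mostly through routes that do not use beta-catenin, had levels of 0.33, 0.32 and 0.36 in Rb deleted cells and 0.87, 0.59 and 0.55 in Rb intact cells. The groups did not overlap, with Rb intact 1 the highest, and the difference of -0.33 ± 0.09 (SE, 95% interval -0.56 to -0.11) had a limma adjusted p of 0.052. Wnt5a passed the threshold under 6 of 19 alternative settings. Wnt9a also lay lower on every Rb deleted array, at -4.02, -3.83 and -3.98 against -3.47, -3.80 and -3.70 in Rb intact cells, with a difference of -0.29 (limma adjusted p = 0.0978). For the other measurable ligands the groups overlapped and the 95% interval included 0. Wnt11 had the widest interval, -0.52 to 0.64. No array was well above background for Wnt2, Wnt2b, Wnt3, Wnt3a, Wnt6, Wnt7a, Wnt8a, Wnt9b, Wnt10a or Wnt10b, and Wnt4 and Wnt8b were so on 1 Rb deleted array each.

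**Figure D2:**
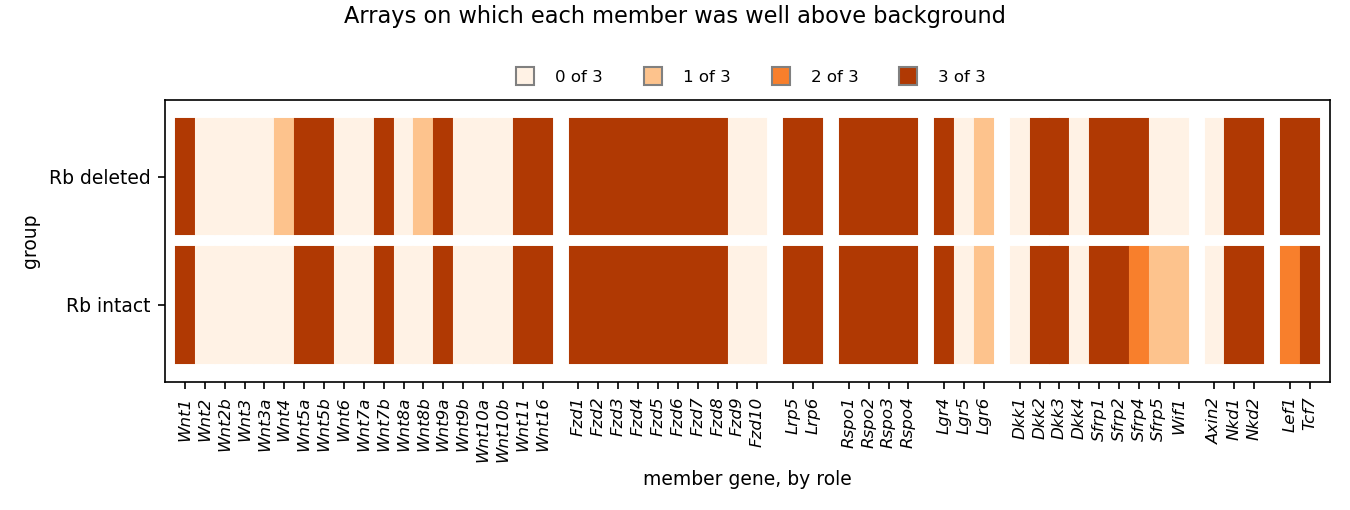
Number of arrays, 0 to 3 in each group, on which each of the 52 members was well above background, with Rb deleted above Rb intact and members ordered by role. Most Frizzled receptors and all R-spondins were detected on every array, while 10 of the 19 Wnt ligands were detected on none.

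Of the 10 Frizzled receptors, the membrane proteins that bind Wnt ligands, 8 were measurable, 2 rose and 2 fell. Over all genes tested 9.45% rose and 10.8% fell. All 4 Frizzled changes were smaller than 1.5-fold. Fzd9 and Fzd10 were not well above background on any array. Fzd2 was at 2.38, 2.41 and 2.43 in Rb deleted cells and at 2.05, 2.18 and 2.16 in Rb intact cells. Each Rb deleted array lay above each Rb intact array, and Fzd2 rose by 0.27 ± 0.06 (SE, limma adjusted p = 0.0234). A second probe of Fzd2 did not show this: its difference was -0.06, with overlapping groups (limma adjusted p over probes = 0.80).

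Fzd5 was at -3.39, -3.46 and -3.62 in Rb deleted cells and at -3.92, -3.73 and -3.92 in Rb intact cells. The groups were apart, and Fzd5 rose by 0.37 ± 0.09 (SE, limma adjusted p = 0.0314). Its second probe differed by 0.32 in the same direction, with overlapping groups (limma adjusted p over probes = 0.11). Fzd1 was at 1.18, 1.08 and 1.13 in Rb deleted cells and at 1.40, 1.54 and 1.41 in Rb intact cells. Every Rb deleted array lay below every Rb intact array, and Fzd1 fell by 0.32 ± 0.06 (SE, limma adjusted p = 0.0173). Fzd6, a receptor best known for planar cell polarity, was at -4.80, -4.78 and -4.59 in Rb deleted cells and at -4.41, -4.18 and -4.46 in Rb intact cells. The groups were apart by a small gap, and Fzd6 fell by 0.37 ± 0.10 (SE, limma adjusted p = 0.043), with a difference of -0.23 and no call under normexp. Fzd8 was lower on every Rb deleted array by 0.21 on average but missed the threshold (limma adjusted p = 0.0703), and Fzd3, Fzd4 and Fzd7 had overlapping groups.

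The co-receptors and the R-spondin receptor did not pass the test. Lrp6 was at 0.32, 0.47 and 0.36 in Rb deleted cells and at 0.34, 0.30 and 0.42 in Rb intact cells, with overlapping groups. Its difference was 0.03 (95% interval -0.13 to 0.19, limma adjusted p = 0.761). Lrp5 lay higher on every Rb deleted array, by 0.17 on average (limma adjusted p = 0.201). Lgr4, which binds R-spondins, was at -3.98, -4.08 and -4.03 in Rb deleted cells and at -4.22, -3.88 and -3.86 in Rb intact cells. Its Rb deleted values fell inside the Rb intact range, and its difference was -0.04 (95% interval -0.30 to 0.22, limma adjusted p = 0.811). Lgr5 was not well above background on any array, and Lgr6 was well above it on 1 array in each group.

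All 4 R-spondins, secreted proteins that strengthen Wnt signals, were well above background on every array. Their groups never overlapped, which was also so for 45.2% of all genes tested. The R-spondins did not move together: Rspo4 fell, Rspo1 and Rspo2 rose, and Rspo3 was not called. Rspo4 was at -0.27, -0.28 and -0.72 in Rb deleted cells and at 0.89, 1.09 and 1.1 in Rb intact cells. Rb deleted 3 was the lowest, and the gap between the groups exceeded the spread within either. Rspo4 fell by 1.45 ± 0.14 (SE), 2.73-fold lower than in Rb intact cells (limma adjusted p = 0.00147), and ranked 78 by size among the 1483 genes that fell.

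Rspo2 was at -2.65, -2.55 and -2.36 in Rb deleted cells and at -3.40, -3.03 and -3.09 in Rb intact cells. All Rb deleted values were the higher, and Rspo2 rose by 0.65 ± 0.12 (SE), or 1.57-fold (limma adjusted p = 0.0154). Rspo1 was at -3.19, -2.98 and -2.98 in Rb deleted cells and at -3.31, -3.56 and -3.46 in Rb intact cells. The nearest arrays of the groups, Rb deleted 1 and Rb intact 1, were close, and Rspo1 rose by 0.40 ± 0.09 (SE), or 1.32-fold (limma adjusted p = 0.0301). Rspo3 differed by 0.17 with Rb deleted the higher, and its limma adjusted p was 0.128.

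**Figure D3:**
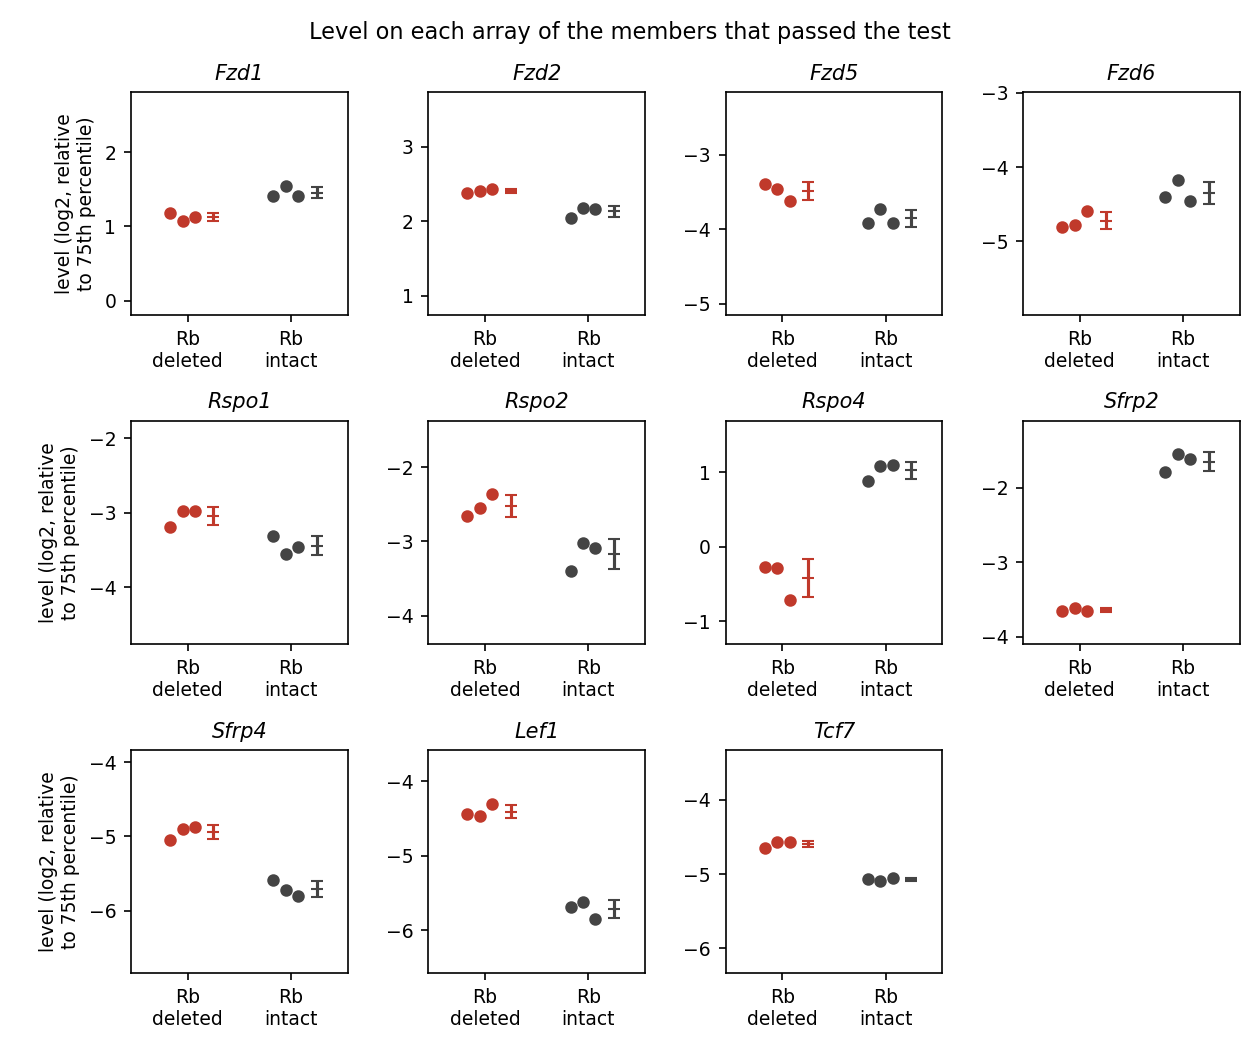
Level on each array (log2 intensity against the 75th percentile of that array) of the 11 members that changed, with Rb deleted in red on the left and Rb intact in grey on the right of each panel. The bar beside each set of points is the mean ± SD (n = 3), every panel spans the same height, and the groups are apart in all 11, by the most in Sfrp2, Rspo4 and Lef1.

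The secreted inhibitors had 9 members, of which 5 were measurable, and the frizzled-related proteins among them went in opposite directions. Sfrp2 was at -3.65, -3.61 and -3.65 in Rb deleted cells and at -1.78, -1.55 and -1.60 in Rb intact cells. The arrays within each group were close and the groups far apart. Sfrp2 fell by 1.99 ± 0.07 (SE, 95% interval -2.17 to -1.81), 3.98-fold lower than in Rb intact cells, with a limma adjusted p of 0.00015, and ranked 34 by size among the genes that fell. Sfrp4 was at -5.05, -4.90 and -4.87 in Rb deleted cells and at -5.59, -5.72 and -5.80 in Rb intact cells. Every Rb deleted array was the higher, and Sfrp4 rose by 0.76 ± 0.08 (SE), or 1.70-fold (limma adjusted p = 0.00211), with a difference of 0.37 under normexp. Sfrp4 was well above background on 2 of the 3 Rb intact arrays and passed the filter through its Rb deleted arrays. Sfrp1 was at -2.35, -2.37 and -2.28 in Rb deleted cells and at -1.71, -2.27 and -2.29 in Rb intact cells. Only Rb intact 1 stood above the rest, and Sfrp1 was not called (limma adjusted p = 0.319).

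Dkk2, a modulator of Lrp6, was at 2.91, 2.92 and 2.99 in Rb deleted cells and at 3.25, 3.19 and 3.01 in Rb intact cells. The groups did not overlap, yet Rb deleted 3 and Rb intact 3 nearly met, and the difference of -0.21 (95% interval -0.40 to -0.02) missed the threshold (limma adjusted p = 0.108). Dkk3, a divergent Dickkopf, overlapped between the groups. Dkk1, the best known Lrp inhibitor, was not well above background on any array, at -7.95, -8.29 and -8.06 in Rb deleted cells and -6.46, -6.41 and -6.44 in Rb intact cells. Its Rb intact signals were the higher on every array, but neither group was well above background, so no fold is given. Without the detection filter limma called Dkk1 as fallen. Dkk4 was not well above background on any array, and Sfrp5 and Wif1 were well above it on 1 Rb intact array each and on no Rb deleted array.

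Of the genes used to read the pathway's output, Axin2, an inhibitor that beta-catenin induces, was not well above background on any array by either of its probes. Nkd2, which binds Dishevelled and dampens the signal, was at 1.09, 1.04 and 0.96 in Rb deleted cells and at 0.74, 1.22 and 1.32 in Rb intact cells. The groups overlapped, with Rb intact 1 lowest of all (limma adjusted p = 0.809). Its second probe differed by 0.38, also with overlapping groups (limma adjusted p over probes = 0.13). Nkd1, a relative with the same role, differed by 0.19 with Rb deleted the higher (limma adjusted p = 0.162). Another Nkd1 probe was not well above background on any array.

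Both transcription factors rose, against 9.45% of all genes tested. Lef1 was at -4.44, -4.47 and -4.31 in Rb deleted cells and at -5.68, -5.62 and -5.85 in Rb intact cells. The values within a group were close and the groups far apart. Lef1 rose by 1.31 ± 0.08 (SE, 95% interval 1.11 to 1.51), or 2.48-fold, with a limma adjusted p of 0.000359. The difference was smaller under normexp, at 0.71. Lef1 ranked 18 by size among the 1298 genes that rose. It was well above background on 2 of the 3 Rb intact arrays and passed the filter through its Rb deleted arrays. Its rank therefore carries no weight of its own. Tcf7 was at -4.64, -4.57 and -4.57 in Rb deleted cells and at -5.07, -5.10 and -5.05 in Rb intact cells. No Rb deleted array came near the Rb intact ones, and Tcf7 rose by 0.48 ± 0.05 (SE), or 1.40-fold (limma adjusted p = 0.00223). A second Tcf7 probe was not well above background on any array.

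Over the 31 measurable members the groups did not overlap for 18, against 45.2% of all genes tested, with Rb deleted above for 10 and below for 8 (23.3% and 21.9% of all genes). Each of the 11 called members was among the 18. The exact permutation p of each was 0.1 (two-sided), the smallest that 3 against 3 arrays can give. Any gene whose groups do not overlap gets this value, so it adds nothing to the separation of the groups. Of the 20 members not called, 14 had a 95% interval within 0.5 of 0 on either side. The differences of those 20 ran from -0.33 to 0.19.

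On the first slide alone, where Rb deleted 1 was set against the 3 Rb intact arrays and taken to vary like them, only Sfrp2, Rspo4 and Lef1 kept their calls. Sfrp2 differed by -2.00 there (limma adjusted p = 0.0276), Rspo4 by -1.29 and Lef1 by 1.28 (limma adjusted p = 0.0447 for both). The other called members kept their direction without passing, with differences of 0.65 for Sfrp4, 0.52 for Rspo2, 0.47 for Fzd5, 0.43 for Tcf7, 0.26 for Rspo1, 0.25 for Fzd2, -0.27 for Fzd1 and -0.45 for Fzd6. Their limma adjusted p on that slide ran from 0.136, for Sfrp4, to 0.524, for Rspo1. With slide as a block the differences are the same by construction, and Sfrp4 (limma adjusted p = 0.0382) and Tcf7 (0.0447) passed as well.

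**Figure D4:**
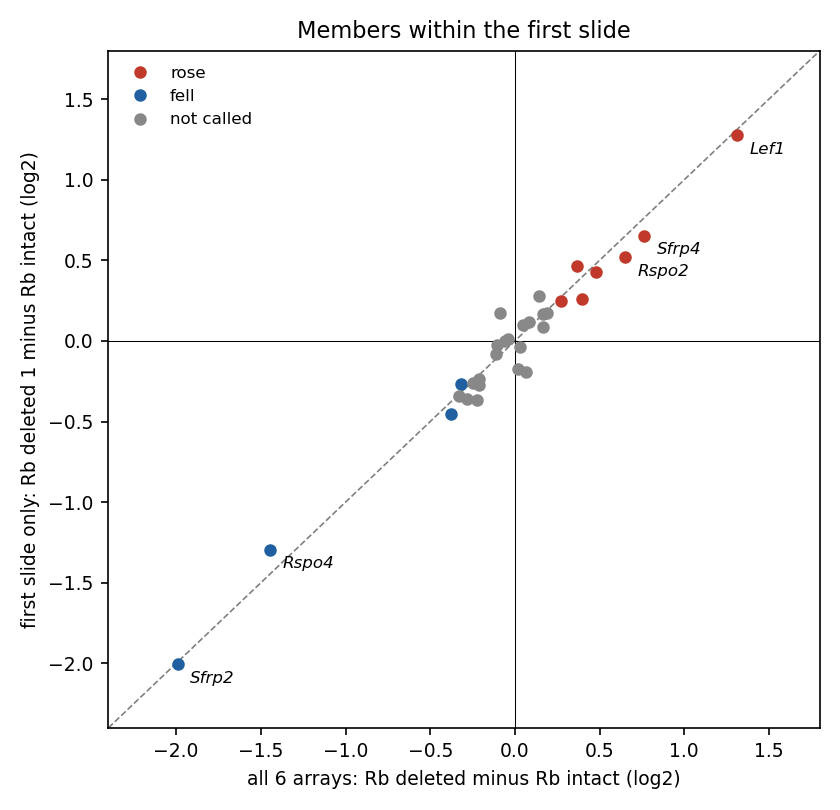
Difference of each measurable member on the first slide alone, Rb deleted 1 minus the 3 Rb intact arrays (vertical axis, log2), against its difference over all 6 arrays (horizontal axis, log2), coloured by the call over all arrays. Points near the dashed line of equality have the same difference in both; Sfrp2, Rspo4 and Lef1 stand away from the rest at both ends.

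The rest of the pathway was read from a list of 63 genes, of which 55 were measurable, and 6 of these rose and 8 fell, or 25.5% against 20.3% of all genes. Rnf43, the membrane ubiquitin ligase that removes Frizzled receptors and is held off by R-spondins, was at -2.79, -2.91 and -2.76 in Rb deleted cells and at -3.98, -4.09 and -4.00 in Rb intact cells. All Rb deleted values were the higher, and Rnf43 rose by 1.20 ± 0.06 (SE), or 2.30-fold (limma adjusted p = 0.000282). Apcdd1, a membrane-bound Wnt antagonist, was at -4.21, -4.39 and -4.32 in Rb deleted cells and at -2.85, -2.88 and -3.07 in Rb intact cells. Its groups were far apart, and Apcdd1 fell by 1.37 ± 0.08 (SE), 2.59-fold lower than in Rb intact cells (limma adjusted p = 0.000327).

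Of the genes that release Wnt ligands, Porcn, which attaches their lipid, fell by 0.66 ± 0.11 (SE, limma adjusted p = 0.0104). Wls, which carries them to the surface, fell by 0.31 ± 0.06 (SE, limma adjusted p = 0.0191). In the cytoplasm 2 of 19 genes rose and 0 fell, or 10.5% called against 20.3% of all genes. Of the uncalled cytoplasm genes, Apc2, Gsk3b, Ctnnb1 and Tnks were lower and Csnk1e higher at an unadjusted limma p under 0.05. Csnk1e differed by 0.55 (limma adjusted p = 0.0635). Ctnnb1, which encodes beta-catenin, was at 3.25, 3.17 and 3.15 in Rb deleted cells and at 3.52, 3.34 and 3.34 in Rb intact cells. It lay lower on every Rb deleted array, but its difference of -0.21 was not called (limma adjusted p = 0.086). Axin1 and Amer1, both parts of the complex that degrades beta-catenin, rose by 0.22 and 0.32 on the log2 scale. In the nucleus 0 of 11 measurable genes were called, and 0 had an unadjusted limma p under 0.05, Tcf7l1 and Tcf7l2 included, which are the other members of the TCF/LEF family.

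Of 9 pathway targets listed, 8 were measurable, 2 rose and 4 fell. Over all genes tested 9.45% rose and 10.8% fell. Genes counted under other roles, Lef1, Tcf7, Rnf43 and Apcdd1 among them, were not in this list, so it does not cover all targets. Mmp7 and Sp5 passed the detection filter through their Rb intact arrays, so their place among the falls carries no weight of its own. Ascl2, a stem cell transcription factor, fell by 0.87 ± 0.06 (SE, limma adjusted p = 0.000559). Id2, an inhibitor of helix-loop-helix factors, fell by 0.44 ± 0.06 (SE, limma adjusted p = 0.00575), and Sp5, a zinc-finger factor, fell by 0.39 ± 0.09 (SE, limma adjusted p = 0.0305), being well above background on 2 of 3 Rb deleted arrays. Mmp7, a matrix protease, was not well above background on any Rb deleted array and was at least 1.66-fold lower in Rb deleted cells, with the lowest detectable signal as the bound (limma adjusted p = 0.0254). Jag1, a Notch ligand, rose by 0.37 ± 0.07 (SE, limma adjusted p = 0.0121), and Bmp4, a growth factor, rose by 0.56 ± 0.15 (SE, limma adjusted p = 0.0473). Among the planar polarity genes, Prickle1 rose by 0.41 ± 0.07 (SE, limma adjusted p = 0.0102) and Celsr3 fell by 0.61 ± 0.16 (SE, limma adjusted p = 0.0406). Single arrays moved the count of 14: it was 5 without Rb deleted 2, 6 without Rb deleted 3, 7 without Rb intact 2, and 9 without Rb deleted 1 or without Rb intact 3. Over all genes 2781 were called, and 1236 to 1801 with any of these arrays left out. On the first slide alone Rnf43, Apcdd1 and Mmp7 passed, and with slide as a block Ascl2 did too.

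**Figure D5:**
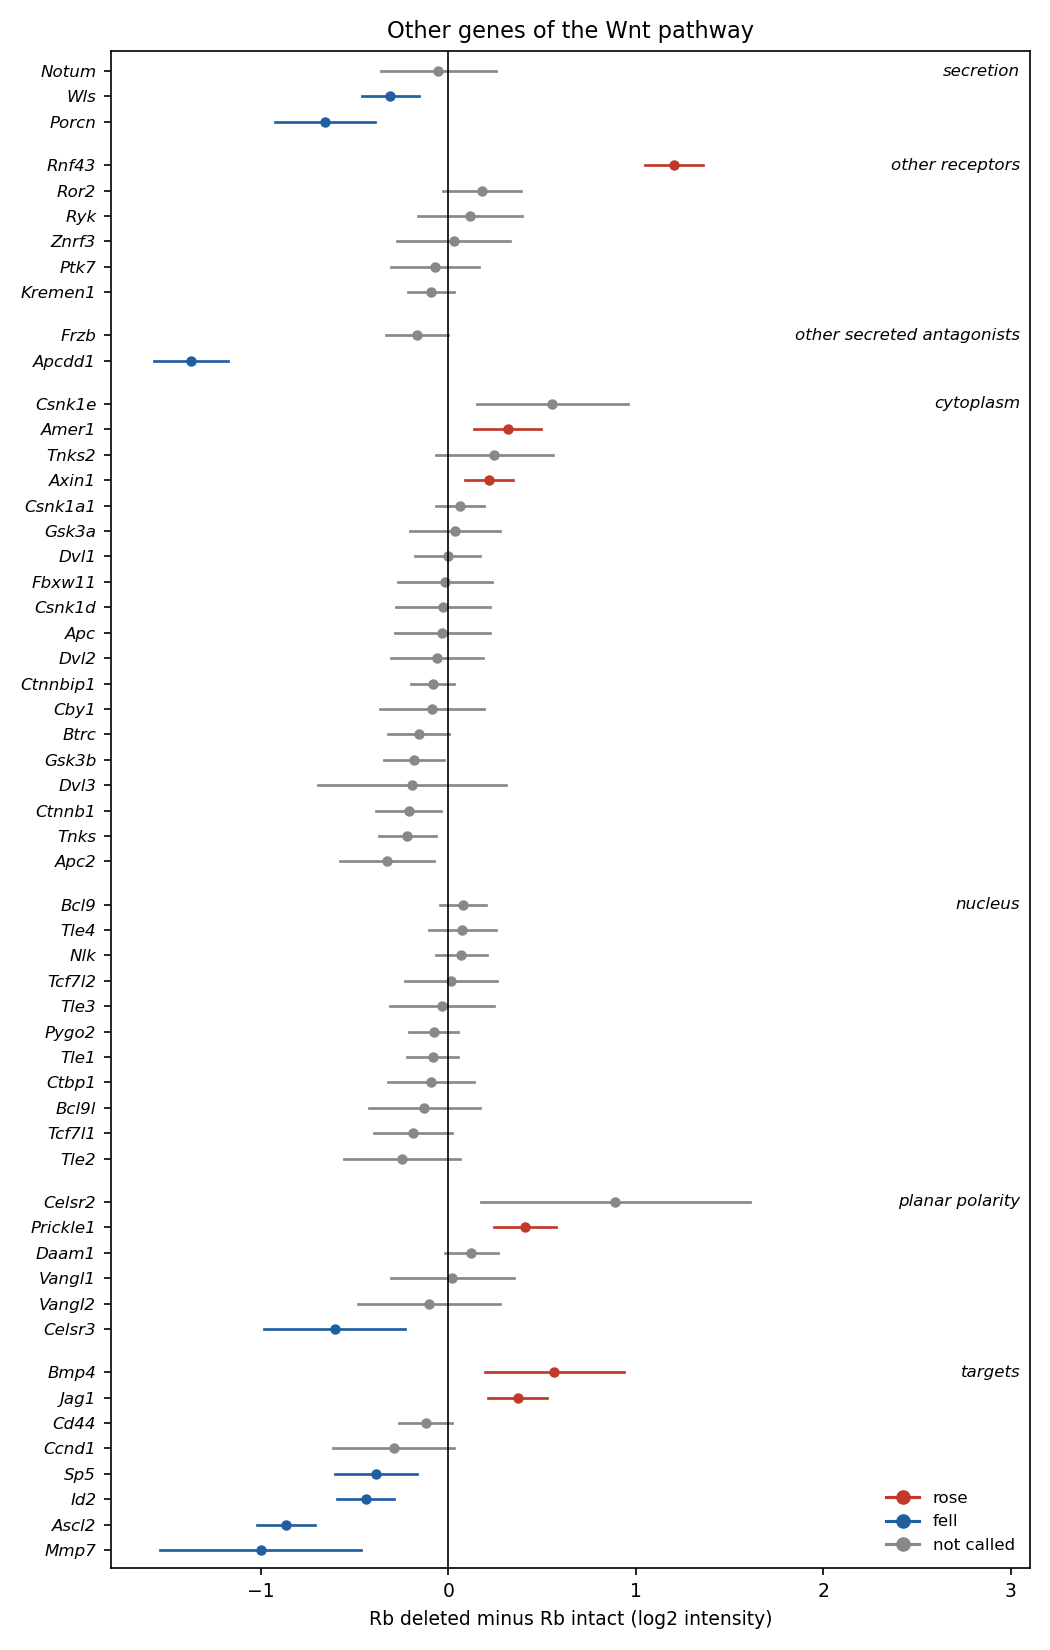
Difference in level, Rb deleted minus Rb intact (log2 intensity), for the 55 measurable genes among 63 other Wnt pathway genes, grouped by their place in the pathway. Points are limma estimates and bars 95% intervals, coloured by call; Rnf43 lies farthest to the right and Apcdd1 farthest to the left.

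Markers of several cell types moved with the same comparison, and in these bulk cultures fewer cells of a type and less RNA per cell cannot be told apart. Of 43 measurable markers 1 rose and 11 fell, or 27.9% called against 20.3% of all genes. Over all genes tested 9.45% rose and 10.8% fell, and each marker list is short. Of the smooth muscle markers 3 of the 3 measurable fell: on the log2 scale Acta2 fell by 1.35, Tagln fell by 0.93 and Cnn1 fell by 0.81. Their mean level was 1.11 to 1.18 in Rb deleted and 2.04 to 2.23 in Rb intact cells, while Myh11 and Des did not reach the filter. Of the squamous markers 3 of 6 fell: Ivl fell by 2.20, Sprr1a fell by 1.02 and Lor fell by 0.95, with a mean level of -3.16 to -3.03 in Rb deleted and -2.50 to -2.32 in Rb intact cells. The squamous marker Tgm1 went the other way, higher on every Rb deleted array by 0.22 on average, but was not called. Krt10 and Krt13 had overlapping groups and were not called. Of the basal markers 3 of 5 fell: Itga6 fell by 0.58, Itgb4 fell by 0.42 and Trp63 fell by 0.26. The limma test called 0 of 6 luminal markers, with an unadjusted p under 0.05 for Krt8. Of the 12 fibroblast markers Lum fell by 0.40 and Fap rose by 0.50, and Sparc, the brightest, differed by -0.09 (limma adjusted p = 0.50). Vim, Col3a1, Pdgfrb and Fn1 were lower at an unadjusted limma p under 0.05 but were not called. Of the 6 leukocyte markers, Ptprc was well above background on 0 arrays, while Itgam and Cd3e were so on all arrays. Neither was called, and their mean level was 0.11 to 0.32 in Rb deleted and -0.26 to 0.62 in Rb intact cells. The part of these cells in the changes of the Wnt genes was not tested.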

How the data were processed

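RNA of 6 primary prostate cultures, 3 Rb deleted and 3 Rb intact, was measured on one-colour Agilent arrays. The authors' intensity values came from Agilent Feature Extraction, whose version was 11.0.1.1 per the file headers and 10.7.3.1 per the submitters' processing notes; the processed intensity is background-subtracted and not scaled between arrays. Flags for well above background, saturated and outlying spots, which are other values of 0 or 1, were also deposited. The authors deposited a log2 table too, each column equal to its array's log2 processed intensity minus a constant within 0.01 for 100% of 22164 probes; its centring is not stated, and its column medians were -0.52 to -0.49.

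Outlying spots were left out, spots of a probe averaged, and each array's log2 intensity shifted by its 75th percentile. Of 39429 probes, 27427 were named through their RefSeq accession (assembly GRCm38.p6), and 12002 stayed unnamed. The array was designed on mm9 per the file headers, so names alone were taken from that match. Probes had to read well above background on each of the 3 arrays of one group or the other, and the brightest passing probe stood for a gene. limma 3.58.1 in R 4.3.3 (lmFit, eBayes) was fitted on all 13729 genes, with Benjamini-Hochberg adjustment at 0.05. Rose and fell mean past that threshold, and differences are Rb deleted minus Rb intact. The fit was also run on simulated data with independent noise. That simulation held no slide or array effect, so it does not cover those in these data. The series speaks of independent experiments but the labels name no animals, so p-values measure the spread between these samples. Every member is accounted for; members past the threshold, and the brightest of each role, have full values. Of other pathway genes the rule took the 10 with the smallest p and Ctnnb1, and of marker lists the brightest and 2 called. Amer1, Axin1, Celsr3, Bmp4 and further markers and members were named after their values were seen. The members and lists were chosen with earlier results of these data known. The number of arrays limits the precision. Alternatives covered scaling, background correction (normexp on median signal, offset 50), the detection filter, the choice of probe, the variance model, slide, replicate number, omission of each array in turn and the log2 table. Some items of the labels and marker lists are not reported here.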

Additional observations from a re-analysis of the deposited data

How the results depend on the processing

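The falls of Sfrp2 and Rspo4, like that of Rb1, kept their direction and call under all 19 alternatives, and Lef1 did so under the 17 that measured it. With normexp on median signal some sizes were smaller, at 0.71 for Lef1, 0.37 for Sfrp4 and -0.23 for Fzd6. Others were larger, at -1.50 for Rspo4, -0.41 for Fzd1 and -0.50 for Wnt5a. Fzd2 was 0.11 as the mean of its probes. Sfrp4 (17 alternatives) and Tcf7 (19) lost their calls on the first slide only. The other called members lost theirs under several settings: Rspo2 under 5, Fzd1 under 8, Rspo1 under 9, Fzd5 under 10, Fzd2 under 11 and Fzd6 under 13; the cause was not tested. Of 300 values for 16 members, 221 kept their call, 58 lost it, 8 gained it and 13 changed sign. Wnt5a gained the call under 6 settings, and Lgr4 (adjusted p = 0.0459) and Nkd2 (adjusted p = 0.030) gained it as falls without Rb intact 1.

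Counts moved as follows. Without scaling, 1289 genes were called rather than 2781, 2 members fell and 8 other pathway genes were called. Without the detection filter, which tests more genes, these were 1483 genes, 3 rising members and 7 pathway genes. With slide as a block they were 674 genes, 3 rising and 2 falling members and 4 pathway genes; on the first slide, with fewer arrays, 154 genes, 1 rising, 2 falling and 3 pathway genes. Leaving out 1 array at a time gave 1236 to 5106 genes, 3 to 8 rising members, 2 to 9 falling members and 5 to 20 pathway genes, and the highest counts came without Rb intact 1.

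Same-numbered arrays did not deviate together (r = -0.03, -0.05 and 0.02), so no pairing by number was seen. Pairing is not excluded, because some Rb deleted arrays lay on a different slide from all Rb intact arrays, and slide differences can enter these deviations. With replicate number as a block 1641 genes were called, 4 members rose, 2 fell, and 9 pathway genes were called.

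Differences near 0 that were not called changed sign. Lgr4 was 0.019 without scaling, 0.013 with slide as a block and on the first slide, and -0.16 to 0.024 with 1 array left out. Lrp6 was -0.0041 as the mean of its probes, -0.036 with slide as a block and on the first slide, and -0.014 to 0.065 with 1 array left out. Nkd2 was 0.0018 without scaling, 0.16 as the mean of its probes, and -0.23 to 0.054 with 1 array left out. The 21 members that did not reach the detection filter have no measurable difference here.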
